A study of Mus musculus with 4 samples.

Results

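The potassium and HCN channel genes were taken as every gene whose symbol begins with Kcn, then letters, then a number, together with the genes of the HCN family. This gave 96 of the 56884 genes in the gene table, and left out the non-coding *Kcnq1ot1*. All 96 are protein coding, and each had at least 1 transcript. Single-nucleus RNA sequencing was performed on medial neocortex of embryonic mice of age E16.5, counted in days. The 2 control libraries carried *Sst-Cre/tdTomato* and the 2 Dnmt1 KO libraries carried *Sst-Cre/tdTomato/Dnmt1 loxP2*, so that *Sst-Cre* and the tdTomato reporter were present in both genotypes. Cre was driven by the somatostatin gene, so loss of *Dnmt1*, which encodes a DNA methyltransferase, is confined by design to cells of the *Sst* lineage, and all other nuclei keep the gene. The libraries of a genotype came from separate mice. Control replicate 2 was labelled batch 2 with 2 sublibraries and the other libraries batch 1 with 8 sublibraries each, so that the second batch held 1 control library and no Dnmt1 KO library.

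Potassium channels let potassium leave or enter a cell along its gradient and thereby set the resting potential, the shape of the action potential and the spacing of spikes. Voltage-gated Kv channels open on depolarization, Kv7 channels carry the slow M-current, calcium-activated channels follow calcium entry, inward rectifiers and two-pore channels hold the membrane near rest, and HCN channels pass a mixed cation current on hyperpolarization. In the developing cortex the channel repertoire changes as proliferating radial glia turn into neurons that fire.

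The retained set held 29656 nuclei, 4905 to 12064 per library, with a median of 12274 to 21140 transcripts, highest in control replicate 2, and 0 barcodes were shared between libraries. Nuclei were assigned to 15 classes by lists of 5 to 10 marker genes, of which none is a potassium or HCN channel gene, and 34.6% of nuclei reached no class. The classes used below were radial-glia-like (2962 nuclei), intermediate progenitor-like (IPC, 1552), upper-layer-like (4399), deep-layer-like (5277), MGE-interneuron-like (2246, from the medial ganglionic eminence), CGE-interneuron-like (614, from the caudal ganglionic eminence), endothelial-like (398) and mural-like nuclei (208). In each class the summed level of its own list was above that in every other of these classes. *Dnmt1* itself was at 61.8 and 47.5 CPM (counts of transcripts scaled to 1000000 per population) over all nuclei of Dnmt1 KO replicates 1 and 2, with 59.6 and 56.0 CPM in the control replicates. In the *Sst*+/*Gad2*+ nuclei, which had a transcript of both genes, its level was 76.1 and 46.1 CPM, against 81.2 and 66.5 CPM, from 18 to 99 transcripts per library, so that the genotypes overlapped. These transcripts do not show which nuclei had lost a functional allele.

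Potassium and HCN channel transcripts were dominated by few genes. Together the 96 genes held 0.974% and 0.967% of the transcripts of the Dnmt1 KO libraries and 0.949% and 0.890% of those of the control libraries. The 5 highest genes held 55.9% of these transcripts and the 10 highest 76.0%. The highest was *Kcnq3*, a subunit of the M-current channel, at 1703 ± 258 CPM (SD over the 4 libraries, as in all values over libraries below). It was followed by *Kcnh7*, an ERG-type channel, at 1215 ± 189 CPM, and *Kcnb2*, a delayed rectifier, at 992 ± 96.9 CPM. These levels rank the genes by transcripts only, with no correction for gene length. *Kcnq5* stood at 782 ± 161 CPM, *Kcnd2*, the A-type channel Kv4.2, at 590.4 ± 129 CPM and its calcium-sensing partner *Kcnip4* at 528 ± 137 CPM. At the other end, 32 of the 96 genes were under 1 CPM.

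By family, the 5 Kv7 genes held 28.6% of the channel transcripts and the 8 EAG, ERG and ELK genes 14.8%. The 15 auxiliary subunit genes held 11.7%, the 2 Kv2 genes 10.8%, the 6 calcium-activated genes 9.61% and the 3 Kv4 genes 8.78%. The calcium-activated group was set by gene symbol (Kcnma, Kcnn and Kcnu), and whether each product responds to calcium was not examined. The 14 two-pore genes held 5.37%, led by *Kcnk10* at 371 CPM, and the 15 inward rectifiers 3.54%, led by *Kcnj3* at 288 CPM. The smallest shares were those of the 8 Kv1 genes (0.343%) and of the 10 silent subunits (0.274%), which form no channel alone and modify Kv2 partners. *Kcna6* led the first at 18.3 CPM and *Kcng1* the second at 11.97 CPM. The 4 HCN genes held 2.24%. *Kcnma1*, the large-conductance calcium-activated channel, led its family at 358 CPM, *Kcnc2* the Kv3 genes at 188 CPM and *Kcnt2* the sodium-activated genes at 122 CPM.

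Levels were also compared between genes per length. Divided by exon length, the order became *Kcnip4* (145 CPM per kb of exon), *Kcnq3* (116), *Kcnd2* (102.0), *Kcnq5* (101.7) and *Kcnh7* (78.4). Divided by the length of the whole gene, *Kcnq3* was highest at 5.67 CPM per kb, and *Kcnip4*, which spans 1135 kb, fell to position 29 of the 96. Whether the counts include intronic reads is not stated, so neither scale is the right one for certain. Of the 96 genes, 71 are overlapped by another annotated gene, 69 of them on the opposite strand, and *Kcnip4* by many on both strands. Since the use of strand is not stated, transcripts of overlapping genes may be divided between them in ways that cannot be seen here.

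**Figure D1:**
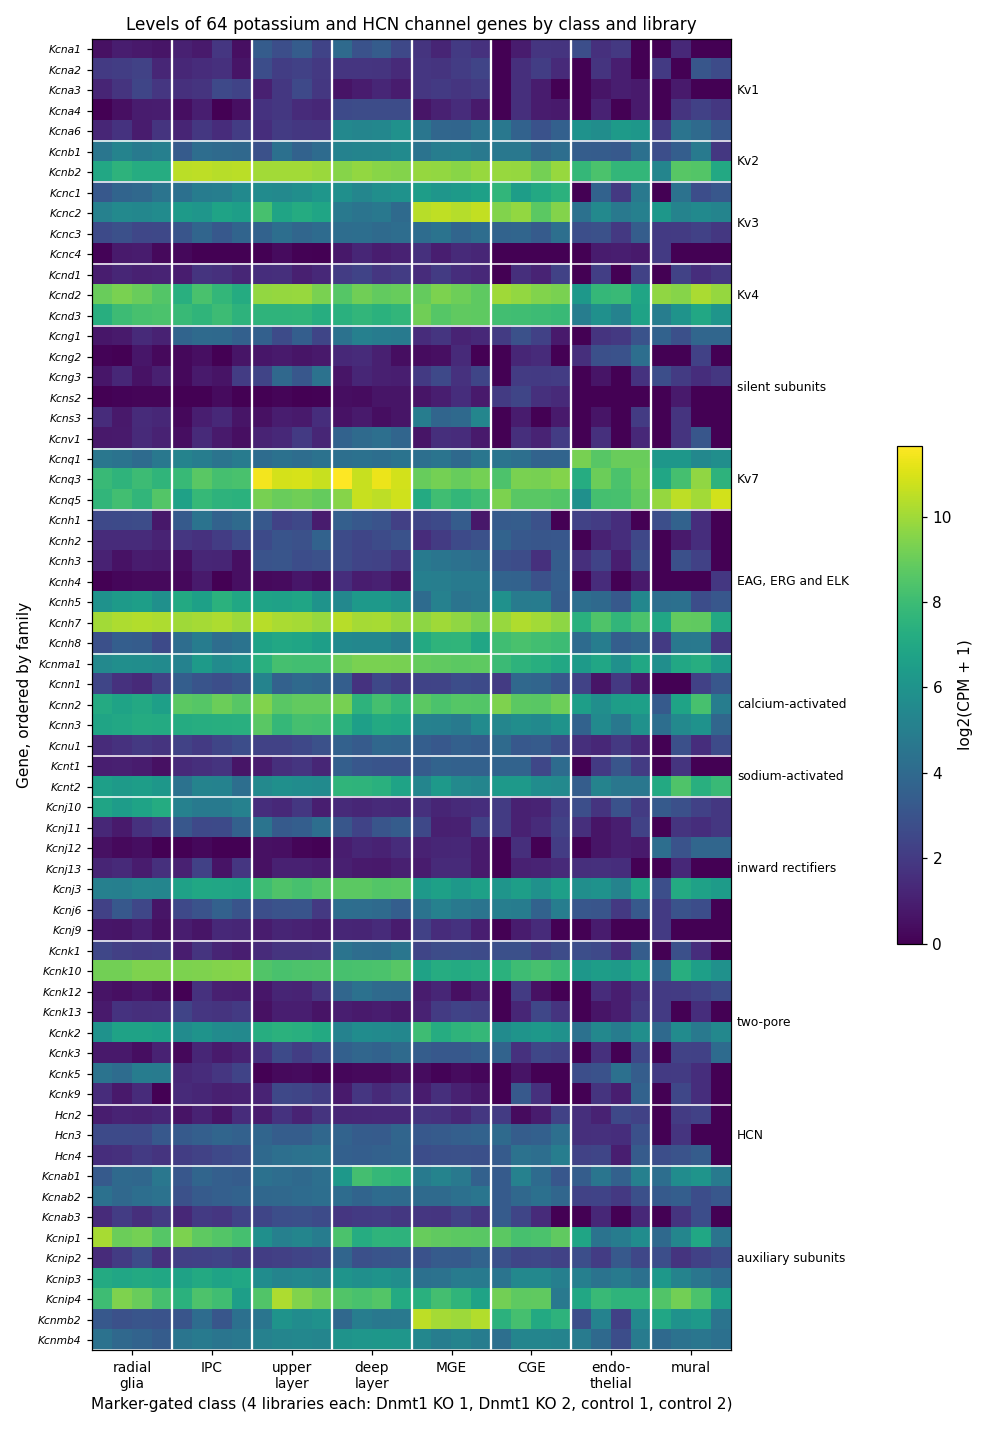
Levels of 64 of the channel genes tested in the neural classes, on the log2(CPM + 1) scale, with genes in rows grouped by family and 8 marker-gated classes in columns, each class with its 4 libraries (Dnmt1 KO 1 and 2, control 1 and 2). Brighter cells are higher levels: *Kcnb2* is brightest in IPC-like nuclei (1395 CPM), *Kcnc2* and *Kcnmb2* in MGE-interneuron-like nuclei (1434 and 1207 CPM), and *Kcnq1* in endothelial-like nuclei (509 CPM).

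Neurons were compared with radial glia, the progenitors from which they arise, to ask which channel genes differ between these marker-gated classes. Excitatory neurons (the mean of upper- and deep-layer-like nuclei) held more of most channel genes. Of the 67 genes that passed the low-count filter in the comparisons of neural classes, 41 were higher in neurons (61.2%), where 17.3% of the 15152 tested genes were called higher. A call required an edgeR adjusted p under 0.05 and a log2 change of at least 1. Only 3 of the 67 were lower (4.48%), where 19.7% of tested genes were called lower. The median log2 change was 1.54 over these 67 genes and -0.03 over all tested genes. The other 29 channel genes were too low to be tested. Since the transcripts of a class were summed, fewer nuclei that express a gene and less RNA of it per nucleus cannot be told apart. By family, 5 of 5 tested calcium-activated genes were higher, 4 of 5 Kv7 genes, 3 of 4 HCN genes, 3 of 5 Kv1 genes and 4 of 6 silent subunits. The calcium-activated *Kcnn3* lost its call without Dnmt1 KO replicate 1 (log2 change 0.83).

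*Kcnq3*, a subunit of the M-current channel, rose from 221 ± 32.0 to 2206 ± 592 CPM, a log2 change of 3.79 (SE 0.246, edgeR adjusted p = 1.23e-11). *Kcnj3*, a G protein-gated inward rectifier, was at 343, 383, 337 and 381 CPM in neurons of both Dnmt1 KO libraries and then both control libraries, each by replicate number, the order of libraries kept from here on, and at 32.8, 32.2, 40.1 and 38.8 CPM in radial glia. All 4 neuronal values were above all radial glial ones, and the log2 change was 3.80 (SE 0.123, edgeR adjusted p = 2.4e-16). *Kcnma1* rose from 48.7 ± 3.81 to 435.5 ± 53.6 CPM, a log2 change of 3.50 (SE 0.179, edgeR adjusted p = 2.6e-13).

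Lower genes with large ratios were *Kcng1*, a silent subunit, *Kcna1*, the Kv1.1 channel, and *Kcnk12*, a two-pore gene. *Kcng1* was at 17.4 ± 2.09 CPM in neurons and 1.04 ± 0.415 CPM in radial glia (log2 change 4.25, SE 0.299, edgeR adjusted p = 4.67e-11). *Kcna1* was at 8.19 ± 3.52 CPM in neurons and 0.663 ± 0.194 CPM in radial glia (log2 change 4.01, SE 0.276, edgeR adjusted p = 3.2e-11). *Kcnk12* was at 8.54 ± 1.33 CPM in neurons and 0.476 ± 0.123 CPM in radial glia (log2 change 3.83, SE 0.375, edgeR adjusted p = 9.15e-09). For each of these 3 genes the neuronal and radial glial libraries did not overlap.

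In the other direction 3 genes were lower in excitatory neurons. *Kcnj10* encodes Kir4.1, the inward rectifier by which glia take up potassium, and lies at chr1:172168765-172201652 (GRCm39, + strand). It was at 110.1, 86.9, 108.5 and 145 CPM in radial glia and at 1.77, 1.49, 2.20 and 1.26 CPM in excitatory neurons. No library came near the other class, and the log2 change was -5.61 (SE 0.134, edgeR adjusted p = 4.96e-18). *Kcnk5*, the acid-sensitive two-pore channel TASK-2 at chr14:20190125-20231900 (GRCm39, - strand), was at 20.8, 16.7, 28.9 and 27.6 CPM in radial glia and between 0.0753 and 0.281 CPM in neurons. Its log2 change was -6.28 (SE 0.187, edgeR adjusted p = 7.29e-17), the largest in size among the tested channel genes in this comparison. *Kcnip1*, a calcium-binding partner of Kv4 channels, was at 1119, 534, 589 and 381 CPM in radial glia and at 191, 91.1, 114.6 and 106 CPM in neurons. It was lower in neurons by a log2 change of -2.33 (SE 0.153, edgeR adjusted p = 1.45e-11), and Dnmt1 KO replicate 1 was the highest library in both classes. MGE interneurons held *Kcnip1* at a mean of 445 CPM, with libraries that overlapped those of radial glia.

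**Figure D2:**
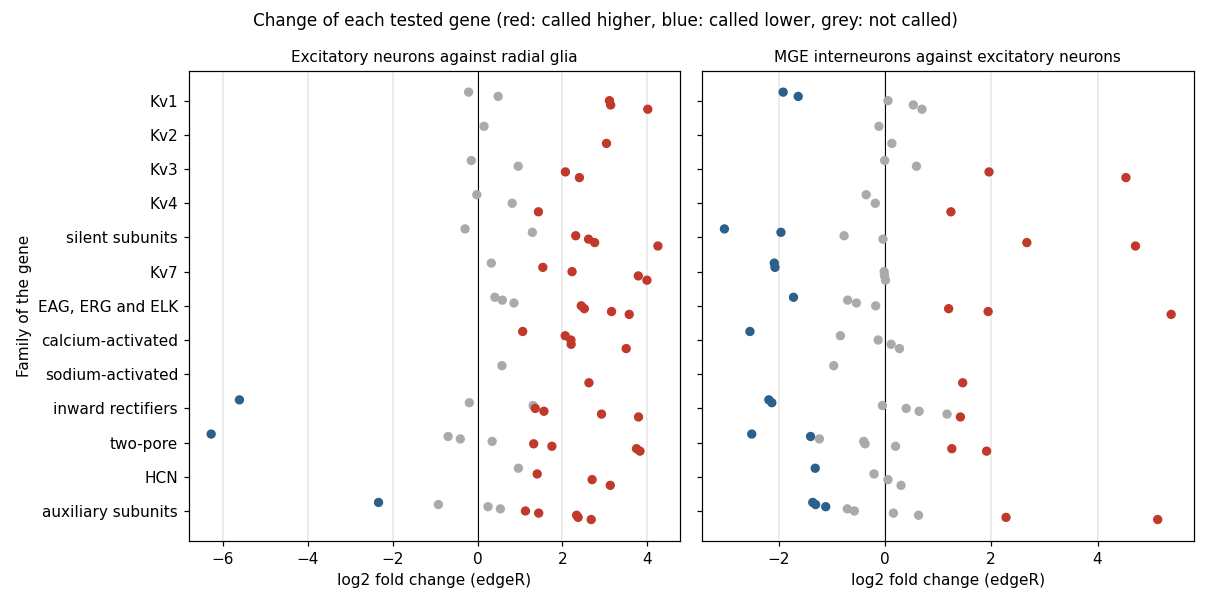
Log2 fold change (edgeR) of each tested channel gene by family, for excitatory neurons against radial glia on the left and MGE interneurons against excitatory neurons on the right, with 1 point per gene, red for called higher, blue for called lower and grey for not called. On the left the higher calls (41) far outnumber the lower ones (3), and on the right the calls lie on both sides (14 and 16).

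Intermediate progenitors were compared with radial glia as the step between the progenitor and the neuron. In IPC-like nuclei 13 of 67 channel genes were higher (19.4%), beside 6.82% of all tested genes, and 7 were lower (10.4%), beside 13.3%. The median log2 change was 0.40 over the channel genes (0.20 with no low-count filter and 0.61 with the filter on mapped reads) and -0.04 over all tested genes. *Kcnb2*, at chr1:15356816-15793974 (GRCm39, + strand), was at 1418, 1430, 1344 and 1388 CPM in IPC-like nuclei and at 126, 186, 146 and 147 CPM in radial glia (log2 change 3.26, SE 0.127, edgeR adjusted p = 5.39e-14). The IPC-like level was the highest of the 6 neural classes, above the 948 to 1050 CPM of upper-layer-like nuclei in every library. *Kcng1*, whose product pairs with Kv2 subunits, rose from 1.04 to 13.4 ± 2.10 CPM (log2 change 3.78, SE 0.353, edgeR adjusted p = 1.95e-08). *Kcnn2*, a small-conductance calcium-activated channel, was at 436 ± 65.7 CPM against 118.5 ± 20.9 CPM, a log2 change of 1.95 (SE 0.206, edgeR adjusted p = 1.16e-07).

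Other genes that were higher in IPC-like nuclei were *Kcnj11*, the pore of the ATP-sensitive channel, and *Kcnh1*, the EAG1 channel. *Kcnj11* was at 7.37 ± 2.93 CPM against 1.94 ± 1.06 CPM (log2 change 2.03), and *Kcnh1* at 14.2 ± 4.98 CPM against 4.09 ± 2.29 CPM (log2 change 2.00). *Kcnh1* was higher in IPC-like nuclei than in any other of the 6 neural classes by its mean, 1.94-fold above the deep-layer-like mean. Of the 3 genes that were lower in excitatory neurons than in radial glia, *Kcnip1* was not called here and its libraries overlapped. The others were already lower: *Kcnk5* at 2.499 ± 1.19 CPM (log2 change -3.19, edgeR adjusted p = 1.28e-10) and *Kcnj10* at 30.4 ± 4.28 CPM (log2 change -1.82, edgeR adjusted p = 1.27e-09). *Kcnt2*, a sodium-activated channel, had a log2 change of -1.62 and *Kcnk1*, a two-pore gene, one of -1.38. *Kcnd2* was at 163, 315, 213 and 142 CPM in IPC-like nuclei and at 502, 638, 511 and 373 CPM in radial glia. This gave a log2 change of -1.25 (SE 0.150, edgeR adjusted p = 6.18e-07), and the IPC-like level was the lowest of the 6 neural classes. *Kcnq3* and *Kcnma1* were not among the 13 called higher, although *Kcnq3* was called with the filter on mapped reads.

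**Figure D3:**
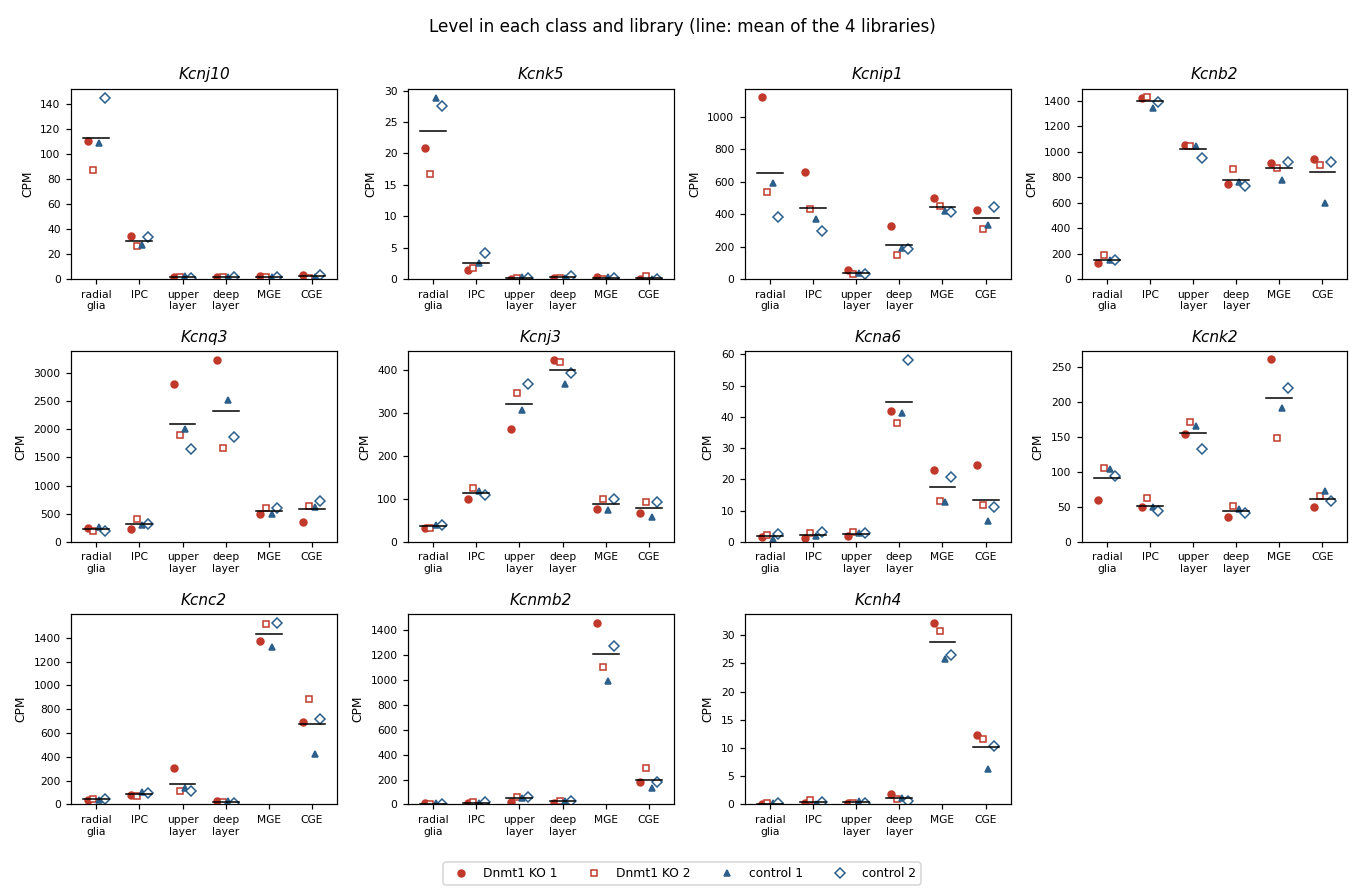
Levels of 11 channel genes in CPM, on linear axes from 0, in the 6 neural classes, with 1 point per library (red for Dnmt1 KO, blue for control) and lines for the means of the 4 libraries. *Kcnj10* steps down from radial glia (113 CPM) to IPCs (30.4 CPM) to the neuronal classes, and *Kcnb2* is highest in IPCs (1395 CPM).

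Deep- and upper-layer-like neurons were compared to ask how the channel repertoire differs between early- and late-born excitatory neurons. In deep-layer-like nuclei 24 of 67 channel genes were higher (35.8%), beside 10.8% of all tested genes. In the other direction 7 were lower (10.4%), beside 5.14%. The median log2 change was 0.36 over the channel genes (0.17 with the filter on mapped reads) and -0.00 over all tested genes.

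*Kcna6*, which encodes the Kv1.6 channel, was at 42.0, 38.1, 41.3 and 58.1 CPM in deep-layer-like nuclei and at 1.88, 3.05, 2.68 and 2.64 CPM in upper-layer-like nuclei. Its log2 change of 4.25 (SE 0.195, edgeR adjusted p = 8.23e-13) was the largest among the channel genes here. *Kcnab1*, a cytoplasmic beta subunit of Kv1 channels, was at 73.5, 288, 215 and 199 CPM against 19.7, 17.0, 14.9 and 18.3 CPM (log2 change 3.62, SE 0.310, edgeR adjusted p = 6.99e-09). Dnmt1 KO replicate 1 was the lowest of the deep-layer values and still above all upper-layer ones. *Kcnk12* was at 15.7 ± 2.47 CPM against 1.38 ± 0.730 CPM (log2 change 3.54, edgeR adjusted p = 6.74e-10), and *Kcnv1*, a silent subunit, at 14.6 ± 2.87 CPM against 1.80 ± 0.811 CPM (log2 change 3.23, edgeR adjusted p = 1.51e-11). *Kcnc4*, a Kv3 channel, had a log2 change of 3.65 on a low level of 1.06 ± 0.304 CPM. Both sodium-activated genes were higher in deep-layer-like nuclei, *Kcnt1* by a log2 change of 2.33 and *Kcnt2* by 1.90.

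On the upper-layer side, *Kcng3*, a silent subunit, was at 4.18, 14.1, 7.93 and 19.96 CPM in upper-layer-like nuclei and at 0.603, 1.40, 1.06 and 0.961 CPM in deep-layer-like nuclei (log2 change -3.31, SE 0.242, edgeR adjusted p = 7.06e-10). The level varied several-fold among libraries, but each was above every deep-layer one. *Kcnc2* was at 168 ± 91.8 CPM against 21.6 ± 4.42 CPM (log2 change -2.72, edgeR adjusted p = 7.82e-08). *Kcnk2*, the mechanosensitive two-pore channel TREK-1, was at 156 ± 16.8 CPM against 43.4 ± 6.75 CPM (log2 change -1.66, edgeR adjusted p = 9.52e-08). *Kcnn1* had a log2 change of -1.67 (edgeR adjusted p = 7.37e-06). *Kcna3*, the Kv1.3 channel, had one of -1.47, but its libraries overlapped between the classes. By the ratio of mean levels to the next of the 6 neural classes, the leading upper-layer genes were *Kcng3* (3.22-fold), *Kcnj2* (2.84-fold, at 1.75 CPM) and *Kcnj11* (1.97-fold, at 14.5 CPM). For each of these genes the libraries overlapped those of the next class, and *Kcnj2* was at 0 CPM in Dnmt1 KO replicate 1.

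Interneurons of the MGE, the class that contains the *Sst* lineage, were compared with excitatory neurons. Of 67 channel genes 14 were higher (20.9%), beside 6.94% of all tested genes, and 16 were lower (23.9%), beside 6.3%. The median log2 change was -0.04 over the channel genes and -0.01 over all tested genes, so the channel genes differed in both directions and not on balance in either. The 4 genes with the largest rise come from different families: *Kcnmb2*, a beta subunit that inactivates large-conductance calcium-activated channels, *Kcnh4*, an ELK-type channel, *Kcns3*, a silent partner of Kv2 channels, and *Kcnc2*, the fast Kv3.2 channel of inhibitory neurons. Their promoter windows are shown because these genes separate the MGE class, which contains the *Sst* lineage, from excitatory neurons, and because the CG dinucleotides, in capitals, are the site at which DNMT1 acts; methylation was not measured in these libraries. Each window runs from 250 bases before to 50 bases after the transcript start in RefSeq (GRCm38.p6), and for a gene with several windows the one with most CG is shown.
Kcnmb2, chr3:31902453-31902752, + strand: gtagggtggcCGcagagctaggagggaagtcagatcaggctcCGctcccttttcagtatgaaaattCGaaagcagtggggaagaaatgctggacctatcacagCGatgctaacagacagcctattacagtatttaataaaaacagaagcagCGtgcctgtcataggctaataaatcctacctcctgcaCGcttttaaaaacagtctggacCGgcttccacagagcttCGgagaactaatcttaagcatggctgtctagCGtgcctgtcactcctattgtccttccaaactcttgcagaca
Kcnh4, chr11:100759729-100760028, - strand: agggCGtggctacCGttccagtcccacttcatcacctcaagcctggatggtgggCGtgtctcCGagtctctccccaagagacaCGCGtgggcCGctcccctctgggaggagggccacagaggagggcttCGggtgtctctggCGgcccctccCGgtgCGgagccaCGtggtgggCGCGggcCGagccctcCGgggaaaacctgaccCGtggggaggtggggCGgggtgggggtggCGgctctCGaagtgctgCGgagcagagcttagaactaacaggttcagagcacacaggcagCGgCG
Kcns3, chr12:11150324-11150623, - strand: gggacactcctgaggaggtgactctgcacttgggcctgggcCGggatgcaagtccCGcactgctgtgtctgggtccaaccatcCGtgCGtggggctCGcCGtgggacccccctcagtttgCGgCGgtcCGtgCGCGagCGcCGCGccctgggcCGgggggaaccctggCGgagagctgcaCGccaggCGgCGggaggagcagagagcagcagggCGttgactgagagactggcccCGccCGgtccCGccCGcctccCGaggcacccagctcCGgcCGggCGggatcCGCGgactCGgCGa
Kcnc2, chr10:112271023-112271322, + strand: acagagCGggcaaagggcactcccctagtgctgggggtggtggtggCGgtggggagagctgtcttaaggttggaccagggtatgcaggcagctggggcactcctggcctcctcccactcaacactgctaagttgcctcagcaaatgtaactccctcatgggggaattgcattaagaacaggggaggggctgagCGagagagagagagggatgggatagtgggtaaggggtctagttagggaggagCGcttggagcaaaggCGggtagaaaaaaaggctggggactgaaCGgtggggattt
The letters CG were counted on 1 strand, since the pair reads the same on both. The windows held 9, 23, 32 and 6 CG, counts that 45.8%, 21.5%, 9.52% and 56.4% of all promoter windows in the table reach or exceed, and 94.6% of windows held at least 1. A window was found for 69 of the 96 channel genes, with a median of 16 CG in the window richest in CG, where the median over all genes was 8.

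*Kcnc2* was at 1371, 1515, 1324 and 1524 CPM in MGE-interneuron-like nuclei and at 164.5, 65.9, 83.2 and 64.9 CPM in excitatory neurons (log2 change 4.53, SE 0.224, edgeR adjusted p = 1.22e-12). Its level separated all 6 neural classes without overlap of neighbours, from MGE through CGE interneurons, upper-layer neurons, IPCs and radial glia down to deep-layer neurons. *Kcnmb2* was at 1459, 1105, 990.3 and 1272 CPM against 18.2, 46.8, 37.2 and 42.1 CPM (log2 change 5.13, SE 0.211, edgeR adjusted p = 7.01e-14). *Kcnh4* was at 32.2, 30.7, 25.8 and 26.6 CPM against values of 0.437 to 1.03 CPM (log2 change 5.39, SE 0.201, edgeR adjusted p = 1.52e-14). *Kcns3* was at 30.1, 12.9, 15.1 and 39.9 CPM against 0.460 to 1.23 CPM (log2 change 4.71, SE 0.247, edgeR adjusted p = 3.25e-12). No library of either class overlapped the other for these 4 genes, and *Kcns3* was the most variable among the interneuron libraries. *Kcns2*, another silent subunit, had a log2 change of 2.67 at a level of 1.07 ± 0.576 CPM. *Kcnh3*, also of the ELK type, was at 21.4 ± 4.36 CPM against 5.35 ± 0.805 CPM, a log2 change of 1.94 (edgeR adjusted p = 2.54e-09).

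Among the genes that were lower in MGE interneurons were *Kcnq3* and *Kcnq5*, both subunits of M-current channels. *Kcnq3* was at 499, 603, 501 and 595 CPM in MGE-interneuron-like nuclei and at 3021, 1778, 2264 and 1759 CPM in excitatory neurons (log2 change -2.07, SE 0.222, edgeR adjusted p = 1.86e-07). *Kcnq5* had a log2 change of -2.08 (edgeR adjusted p = 2.59e-07). *Kcnj3* was at 86.9 ± 14.2 CPM against 361 ± 24.3 CPM (log2 change -2.13, edgeR adjusted p = 3.34e-12) and *Kcnj11* had a log2 change of -2.18. *Kcnn3*, a small-conductance calcium-activated channel, was at 35.4 ± 9.39 CPM against 215.5 ± 56.4 CPM (log2 change -2.54, edgeR adjusted p = 3.04e-10). *Kcng1* had a log2 change of -3.02 (edgeR adjusted p = 4.21e-08) and *Kcnk12* of -2.505. MGE-interneuron-like nuclei also held transcripts of the upper-layer marker list, at a summed level of 2476 to 3433 CPM beside 6138 to 8236 CPM in upper-layer-like nuclei, and the part of this in the values above was not tested.

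CGE interneurons were compared with MGE interneurons, the other cortical inhibitory lineage. Fewer channel genes were called here: 3 of 67 channel genes were higher in CGE-interneuron-like nuclei (4.48%), beside 3.06% of all tested genes, and 9 were lower (13.4%), beside 2.94%. The median log2 change was -0.08 over the channel genes and -0.02 over all tested genes. *Kcns3* was found mainly in the MGE class, with 667 transcripts there and 4 among CGE nuclei (24.5 ± 12.8 against 0.406 ± 0.469 CPM, log2 change -5.29, SE 0.618, edgeR adjusted p = 3.9e-06). *Kcnmb2* was at 181, 294, 133 and 183 CPM in CGE nuclei, below the 990.3 to 1459 CPM of the MGE class (log2 change -2.75, SE 0.264, edgeR adjusted p = 2.61e-07). *Kcnh3* had a log2 change of -2.04 (edgeR adjusted p = 5.87e-05) and *Kcnk2* of -1.77 (edgeR adjusted p = 2.8e-06). *Kcnc2*, at 677 ± 190 CPM in CGE nuclei, had a log2 change of -1.14 (edgeR adjusted p = 0.00496), and the call was lost without control replicate 1 (log2 change -0.97, edgeR adjusted p = 0.0669). *Kcnc4* had 0 transcripts in CGE nuclei and 41 in the MGE class, which is at least 3.39-fold lower when 3 transcripts over all CGE nuclei are taken as the floor. Its call was lost without any 1 library (edgeR adjusted p = 0.0695 to 0.184).

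On the CGE side, *Hcn4*, the slow HCN channel, was at 9.19, 19.9, 17.3 and 29.4 CPM in CGE nuclei and at 5.85, 6.20, 6.51 and 6.13 CPM in MGE nuclei. All 4 CGE values were higher, with a log2 change of 1.65 (SE 0.166, edgeR adjusted p = 4.88e-07). *Kcnq5* was at 665, 414.5, 408 and 374 CPM against 138, 267, 211 and 271 CPM (log2 change 1.01, edgeR adjusted p = 0.00878), just at the limit of the call, which was lost without Dnmt1 KO replicate 1 (log2 change 0.65) and without control replicate 1 (edgeR adjusted p = 0.0608). The third higher gene was *Kcnn1* (log2 change 1.36, edgeR adjusted p = 0.0239), whose libraries overlapped. Its call was lost without Dnmt1 KO replicate 2 (edgeR adjusted p = 0.285) and without control replicate 1 (edgeR adjusted p = 0.118). By ratio to the next of the 6 neural classes, the leading CGE genes were *Kcns2* (2.62-fold, at 2.80 CPM), *Kcnc1* (1.78-fold, at 149.8 CPM) and *Kcnh8* (1.75-fold, at 281 CPM), none of which was called against the MGE class, although *Kcns2* was called without control replicate 1. Dnmt1 KO replicate 1 had 31 CGE-interneuron-like nuclei, where 3 transcripts amount to 9.19 CPM, so low genes are poorly measured there.

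Vascular nuclei (endothelial- and mural-like together, 71 to 339 per library) were compared with radial glia in a separate fit with 51 channel genes. Here 16 were higher (31.4%), beside 17.9% of all tested genes, and 13 were lower (25.5%), beside 14.2%. The median log2 change was 0.14 over the channel genes and -0.05 over all tested genes. With the filter on mapped reads 7 of 40 tested channel genes were higher, beside 2335 of all 13088 tested genes, and 14 were lower, beside 2173. The median over the channel genes then turned to -0.26. Without Dnmt1 KO replicate 2 this median was -0.05. The leading genes split by vascular cell type. *Kcnj8*, the Kir6.1 pore of the ATP-sensitive channel of pericytes and smooth muscle, lies at chr6:142510563-142517830 (GRCm39, - strand). It was at 182, 116, 126 and 95.97 CPM in mural-like nuclei, from 314 transcripts in all, and had 3 transcripts in the endothelial-like nuclei and 4 in radial glia. For vascular nuclei as a whole the log2 change was 8.54 (SE 0.426, edgeR adjusted p = 2.01e-06). *Abcc9*, the regulatory subunit of this channel and no potassium channel gene itself, was at 3392, 1760, 1858 and 2485 CPM in mural-like nuclei (log2 change of vascular nuclei 10.90). *Kcnj12*, an inward rectifier, was at 12.8 ± 4.39 CPM in mural-like nuclei.

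In endothelial-like nuclei *Kcnj2*, the Kir2.1 channel by which capillaries sense potassium, was at 92.7, 49.7, 60.3 and 43.1 CPM, and mural-like nuclei had 1 transcript in each Dnmt1 KO library and 0 in the controls. The log2 change of vascular nuclei was 7.82 (SE 0.486, edgeR adjusted p = 6.4e-06), with 7 transcripts in radial glia. *Kcnq1*, at chr7:142660099-142980788 (GRCm39, + strand), was at 617, 398, 504 and 517.5 CPM in endothelial-like nuclei, at 59.5 ± 14.4 CPM in mural-like nuclei and at 21.0 ± 3.69 CPM in radial glia (log2 change of vascular nuclei 4.23, SE 0.128, edgeR adjusted p = 1.96e-07). *Kcnq1ot1*, the non-coding gene antisense to it, was at 429 ± 131 CPM in endothelial-like nuclei and 525 ± 71.7 CPM in radial glia, with overlapping libraries. *Kcne3*, a beta subunit that associates with the Kv7.1 channel of *Kcnq1*, was at 23.7, 12.3, 4.71 and 2.31 CPM in endothelial-like nuclei and had 0 transcripts in mural-like nuclei and 1 in radial glia. The ratio of vascular nuclei to radial glia was 283, with an exact 95% interval of 50.8 to 11180 for counting error. *Kcna6* was at 66.3 ± 12.4 CPM in endothelial-like nuclei and had a log2 change of 4.88 for vascular nuclei (edgeR adjusted p = 3.57e-06).

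**Figure D4:**
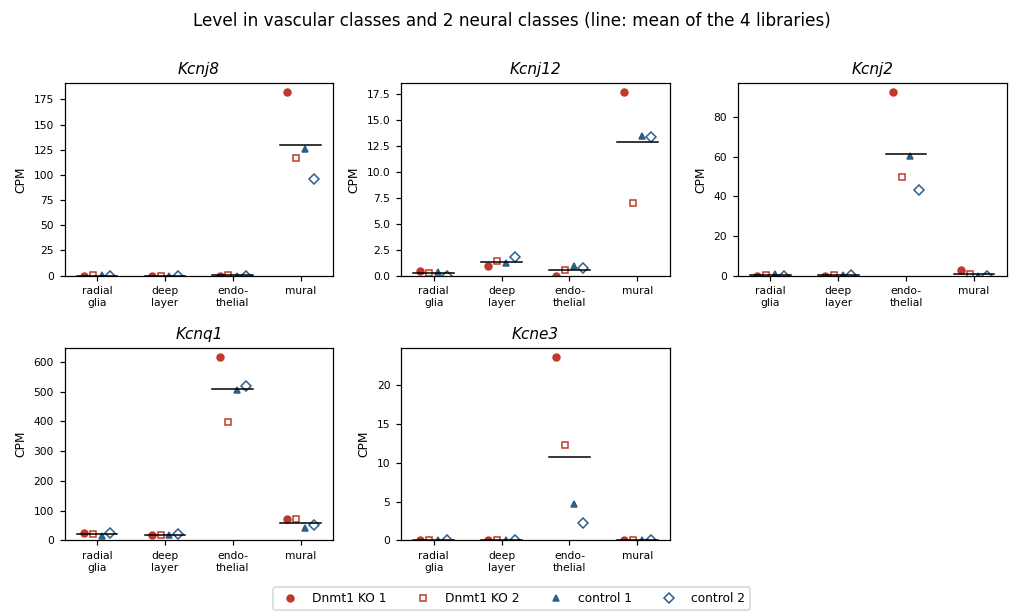
Levels of 5 channel genes in CPM, on linear axes from 0, in radial-glia-like, deep-layer-like, endothelial-like and mural-like nuclei, with 1 point per library and lines for the means of the 4 libraries. *Kcnj8* lies between 95.97 and 182 CPM in mural-like nuclei and near 0 elsewhere, and *Kcnq1* between 398 and 617 CPM in endothelial-like nuclei.

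Lower in vascular nuclei than in radial glia were *Kcnj10* (4.79 ± 1.93 against 113 ± 24.0 CPM, log2 change -4.54, edgeR adjusted p = 1.56e-06), *Kcnip1* (log2 change -3.58), *Kcnk10* (-2.76), *Kcnip3* (-2.13) and *Kcnh7* (-2.05). Some genes called higher are neuronal genes with a wide spread. *Kcnj3* was at 34.2, 82.8, 57.5 and 107.5 CPM in vascular nuclei and at 32.2 to 40.1 CPM in radial glia, so the libraries overlapped. Its log2 change fell below the limit of a call without Dnmt1 KO replicate 2 (0.86) and without control replicate 2 (0.81), and in the fits with DESeq2, no low-count filter or the filter on mapped reads. The deep-layer marker list summed to 3070 to 4988 CPM in vascular nuclei, beside 16820 to 19970 CPM in deep-layer-like nuclei and 1607 to 1958 CPM in radial glia. The part of these transcripts in the call of *Kcnj3* was not tested.

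Across the 5 comparisons of neural classes, 61 of the 67 tested genes were called at least once. The matching share over all 15152 tested genes was not counted, so the 61 have no reference. In neurons against radial glia alone, 17.3% of all tested genes were called higher and 19.7% lower. The 6 not called in these fits were *Hcn2*, *Kcna2*, *Kcnab2*, *Kcnh7*, *Kcnj13* and *Kcnq1*, whose largest changes in size were between 0.51 and 0.96 on the log2 scale. With the stricter gate *Hcn2* was called in neurons against radial glia, and *Kcna2* and *Kcnab2* in IPCs against radial glia. *Kcnh7*, the second channel gene by transcript count, was not called in any of these 5 comparisons, with 1173 CPM in radial glia, 1081 CPM in IPC-like nuclei and 823 CPM in MGE interneurons.

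A list of 18 partners of these channels, which are not channel genes themselves, was followed in the same fits, in which 14 were tested. In neurons against radial glia 7 were higher and 2 lower, where 17.3% and 19.7% of all tested genes were. *Dpp6* and *Dpp10*, which bind Kv4 channels and speed their gating, had log2 changes of 1.93 and 2.74, and *Abcc8*, the sulphonylurea receptor that pairs with *Kcnj11*, one of 4.29. In IPC-like nuclei against radial glia 1 partner was higher and 2 were lower, beside 6.82% and 13.3% of all tested genes. In deep- against upper-layer nuclei 7 were higher and none lower, beside 10.8% and 5.14%. Among the 7 were *Dpp10* (log2 change 4.82) and *Lgi1* (log2 change 4.56), whose product binds near Kv1 channels. In MGE interneurons against excitatory neurons 5 were higher, among them *Dpp10* (log2 change 3.20), and 1 was lower, *Abcc8* (log2 change -2.68), beside 6.94% and 6.3%. In CGE against MGE interneurons 1 was higher and 3 were lower, among them *Dpp10* (log2 change -3.69), beside 3.06% and 2.94%. In vascular nuclei against radial glia 8 were higher and 1 lower, beside 17.9% and 14.2%.

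The comparison of Dnmt1 KO with control libraries asked whether channel gene levels differ in the *Sst* lineage, where the allele is deleted, and in the other cells, which keep it. At an edgeR adjusted p under 0.05, 0 channel genes were called in all retained nuclei, *Sst*+/*Gad2*+ nuclei, MGE interneurons, radial glia, IPCs, upper-layer or deep-layer neurons, and 0 in the test of whether the genotype difference itself differed between MGE interneurons and excitatory neurons. The share of all genes called was likewise 0% in each of the 8 comparisons. DESeq2 called 0 channel genes in each of the 8, and between 0 (*Sst*+/*Gad2*+ nuclei) and 205 (all retained nuclei) of all genes. The smallest edgeR adjusted p of a channel gene was 0.649, in all retained nuclei.

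At an unadjusted edgeR p under 0.05, 5 of 82 channel genes passed in all retained nuclei (6.10%), beside 7.49% of all tested genes. In *Sst*+/*Gad2*+ nuclei 7 of 35 passed (20%), beside 2.94%, and in MGE interneurons 5 of 61 (8.20%), beside 5.99%. In radial glia 7 of 55 passed (12.7%), beside 7.62%, and in IPCs 3 of 49 (6.12%), beside 5.94%. In upper-layer neurons 0 of 63 passed, beside 2.9%, and in deep-layer neurons 2 of 69 (2.90%), beside 6%. For the difference between MGE interneurons and excitatory neurons 5 of 68 passed (7.35%), beside 2.48%. None of these shares is a test, and none of the genes behind them survived adjustment over all genes.

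The *Sst*+/*Gad2*+ nuclei were few: Dnmt1 KO replicate 1 held 16, Dnmt1 KO replicate 2 held 136, and the control libraries held 40 and 27. Of the 35 channel genes tested there, 12 did not overlap between the genotypes (34.3%), and neither did 33.5% of all tested genes. *Kcnip1* was at 698 and 458 CPM in the Dnmt1 KO libraries, against 335 and 306 CPM in control libraries (log2 change 0.90, SE 0.275, edgeR adjusted p = 1.000). *Kcnt2* was at 63.4 and 112.6 CPM against 58.2 and 44.8 CPM (log2 change 0.92). All 7 genes that passed at the unadjusted threshold in *Sst*+/*Gad2*+ nuclei had the same edgeR adjusted p of 1.000. In *Kcnip1* and *Kcnt2* both Dnmt1 KO values were above both control values, a lack of overlap being a condition for naming them. The gap between the Dnmt1 KO values was wider than that between the control values.

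For the A-type channels, *Kcnd2* was at 1501 and 1282 CPM in the Dnmt1 KO libraries, against 1037.5 and 665 CPM in control *Sst*+/*Gad2*+ nuclei (log2 change 0.76). *Kcnd3*, another Kv4 channel, was at 1230 and 488 CPM against 389 and 468 CPM (log2 change 1.05), so that Dnmt1 KO replicate 2 lay close to the controls. *Kcnn3* was the 1 of the 7 genes that was lower: it had 0 transcripts in Dnmt1 KO replicate 1, where 3 transcripts amount to 12.7 CPM, and 25.6 CPM in replicate 2, against 53.3 and 72.2 CPM in the controls (log2 change -1.59). *Kcnn3* was at 299 CPM in upper-layer-like nuclei, and the upper-layer marker list was also lower in the Dnmt1 KO *Sst*+/*Gad2*+ nuclei, at 2448 and 2039 CPM against 2503 and 3581 CPM. The part of these transcripts in the *Kcnn3* values was not tested. In the wider MGE class *Kcnn3* overlapped, at 33.9 and 33.2 CPM against 26.2 and 48.5 CPM. *Kcnh5*, an EAG channel, passed at the unadjusted threshold with overlapping libraries. The summed MGE marker list was also higher in the Dnmt1 KO *Sst*+/*Gad2*+ nuclei, at 15040 and 12800 CPM against 10780 and 10770 CPM, with 4 of its 9 genes (*Nxph1*, *Sox6*, *Gad1* and *Sst*) above both controls in both libraries and 2 (*Maf* and *Dlx6os1*) below. The part of this in the channel gene values was not tested.

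In MGE interneurons 14 of 61 channel genes did not overlap between the genotypes (23.0%), and neither did 38.6% of all tested genes. These nuclei include the *Sst*+/*Gad2*+ ones that pass the gate, so the 2 populations are not independent. *Kcnip3*, the calcium sensor DREAM, was at 19.0 and 20.1 CPM against 27.8 and 26.7 CPM (log2 change -0.41, SE 0.132, edgeR adjusted p = 0.825). *Kcnh2*, the ERG1 channel, was at 1.75 and 3.14 CPM against 5.15 and 6.41 CPM (log2 change -1.04). *Kcnh3* and *Kcnh4* had log2 changes of 0.47 and 0.32.

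**Figure D5:**
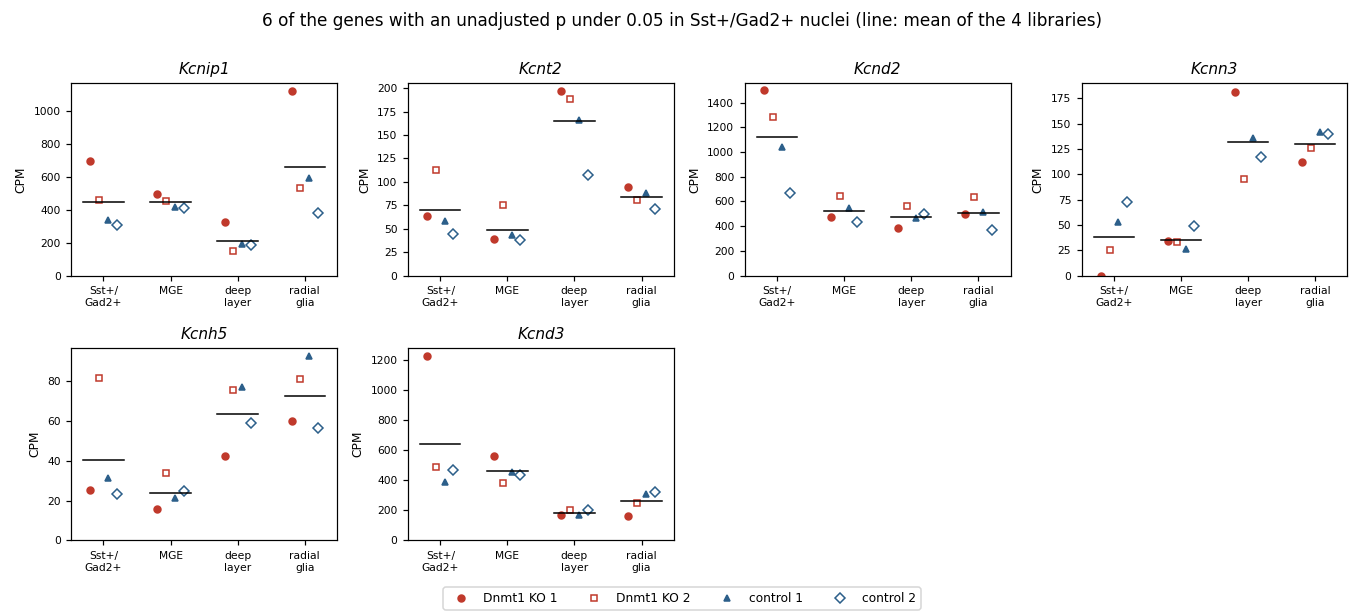
Levels in CPM, on linear axes from 0, of 6 of the 7 channel genes with an unadjusted edgeR p under 0.05 in *Sst*+/*Gad2*+ nuclei, shown there and in MGE-interneuron-like, deep-layer-like and radial-glia-like nuclei, with 1 point per library (red for Dnmt1 KO, blue for control) and lines for the means of the 4 libraries. In *Sst*+/*Gad2*+ nuclei both Dnmt1 KO points of *Kcnip1* (698 and 458 CPM) lie above both control points (335 and 306 CPM), and no difference passed the edgeR adjustment over all genes.

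Cells outside the *Sst* lineage were compared in the same way. In radial glia *Kcnk5* was at 20.8 and 16.7 CPM in the Dnmt1 KO libraries, against 28.9 and 27.6 CPM in control libraries (log2 change -0.55, SE 0.151, edgeR adjusted p = 0.654) and *Kcnmb4*, a beta subunit of large-conductance channels, at 19.8 and 14.5 CPM against 12.3 and 9.54 CPM (log2 change 0.69). *Kcnj11* had a log2 change of -1.24 from 73 transcripts. It was at 14.5 CPM in upper-layer-like nuclei. The upper-layer marker list was also lower in the Dnmt1 KO radial glia, at 1218 and 1151 CPM against 1352 and 1453 CPM. The part of these transcripts in the *Kcnj11* values was not tested.

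In IPCs *Kcnip1* was at 662 and 430 CPM in the Dnmt1 KO libraries, against 370 and 297 CPM in control libraries (log2 change 0.78, edgeR adjusted p = 0.808). *Kcnq1* had a log2 change of 0.49 and *Kcna3* one of -0.97. In deep-layer neurons the 2 genes that passed were *Kcnh1* (log2 change 0.89) and *Kcnt2* (log2 change 0.52, at 197.5 and 189 CPM against 166 and 107 CPM). In these nuclei the deep-layer marker list summed to 16820 and 18800 CPM against 19970 and 19960 CPM. The upper-layer list summed to 351 and 640 CPM against 702 and 705 CPM. The part of these marker differences in the values of the 2 genes was not tested. Over all retained nuclei *Kcne3* had the smallest unadjusted p among the channel genes, with a log2 change of 2.07 from 69 transcripts (edgeR adjusted p = 0.649). *Kcne3* is endothelial in these data, and vascular-like nuclei made up 1.40% and 2.81% of the Dnmt1 KO libraries and 1.66% and 1.45% of the control libraries, so the share of Dnmt1 KO replicate 1 was below both controls. Within endothelial-like nuclei *Kcne3* was at 23.7 and 12.3 CPM in the Dnmt1 KO libraries, against 4.71 and 2.31 CPM in control libraries, from 62 transcripts in all, and this difference was not tested in that class. *Kcnc1* and *Kcnh2* were lower over all retained nuclei (log2 changes -0.48 and -0.61) and *Kcnk13* and *Kcnt2* higher (0.58 and 0.46). The class make-up also differed between libraries. Upper-layer-like nuclei were 7.75% and 12.4% of the Dnmt1 KO libraries against 16.48% and 26.6% of the control libraries, and the upper-layer marker list summed to 1521 and 2154 CPM against 2634 and 3336 CPM. The nuclei that reached no class were 39.8% and 37.8% of the Dnmt1 KO libraries and 32.6% and 23.8% of the control libraries. These class shares therefore also depend on how many nuclei were assigned. *Kcnk13* was highest in microglia-like and choroid-plexus-like nuclei, of which Dnmt1 KO replicate 2 held 52 of 79 and 136 of 144. It also held 218 of the 223 meningeal-like nuclei, where *Kcnt2* was at 701 CPM in that library. Dnmt1 KO replicate 1 held 6 microglia-like, 3 choroid-plexus-like and 1 meningeal-like nuclei. Its microglia-like share was 0.106%, below the 0.199% and 0.143% of the control libraries. The part of this make-up in the differences over all retained nuclei was not tested.

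The genotype difference was compared between MGE interneurons and excitatory neurons in 1 test of the interaction. *Kcnip3* had a log2 difference of differences of -0.57 (SE 0.177, edgeR adjusted p = 1), *Kcnip4* of 0.36, *Kcna1* of -1.002 and *Kcng3* of 1.11.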

How the data were processed

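Parse Evercode libraries from 2 Dnmt1 KO and 2 control mice were used. The authors processed the reads with Trailmaker on GRCm39 (version, annotation release and use of strand not given in the sources used here) and deposited unfiltered transcript counts per barcode, with molecular identifiers collapsed. Barcodes were kept when they had between 1500 and 60000 transcripts, of which mitochondrial ones made up no more than 10%. No doublet caller was run. Nuclei were assigned to classes by 15 marker lists, using log transcripts per 10000, a z capped at 3, a lowest score of 0.4, a margin of 0.2 to the second score and at least 3 detected markers. Counts were summed per library and class and tested with the quasi-likelihood test of edgeR 4.0.16 (TMM, low-count filter) in R 4.3.3, with Benjamini-Hochberg adjustment over all genes. Class contrasts had library as a block, and a call required an adjusted p under 0.05 and a log2 change of at least 1. Genotype calls required the adjusted p alone. Total counts per retained library were 75338095 to 172783347, and counting intervals (95%, exact) cover counting error only. Named members of class contrasts were the 5 with the largest change per direction among those called in every library's direction with at least 20 transcripts. In genotype comparisons up to 5 were named, by smallest unadjusted p under 0.05. Only genes whose libraries did not overlap between genotypes were eligible there. The highest of each family and the 3 most class-enriched were also named. Some genes are not reported here singly, but are part of the counts. The members and lists were chosen with earlier results of these data known. Scripts were tested on simulated data. The alternatives were DESeq2 1.42.0, no low-count filter, a filter on mapped reads, a stricter gate (margin 0.5), a replicate block and leaving out each library. Promoter sequences came from RefSeq. Python 3.11.15 was used with numpy 2.4.6, pandas 2.3.3 and scipy 1.17.1.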

Additional observations from a re-analysis of the deposited data

How the results depend on the processing

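Of 418 alternative values of the 53 named class results, 411 kept their direction and call, 7 lost the call and 0 reversed. The 7 among the genes named by the rule were *Kcnc4* in CGE against MGE interneurons, which lost the call without any 1 library, and *Kcnq5* there, at log2 0.97 without the low-count filter, 0.65 without Dnmt1 KO replicate 1 and 1.09 without control replicate 1. Without control replicate 2, the only library of its batch, 5 of 67 members were called higher in CGE than MGE interneurons. This stood beside 429 of 15181 tested genes. Leaving out each library in turn gave 2 to 5 such members, beside 295 to 448 of all tested genes. Members called lower in neurons than in radial glia numbered 5 of 96 without the low-count filter, beside 4145 of 34673 tested genes. Those higher in vascular nuclei than in radial glia numbered 7 of 40 with the filter on mapped reads, beside 2335 of 13088. Of 211 values of 25 named genotype results, none called in the main fit, 205 kept their direction and stayed uncalled, 6 gained a call and 0 reversed. These genes were chosen for libraries that do not overlap between genotypes, so leaving out a library could hardly reverse their direction. Without the low-count filter, members called between genotypes are given beside the calls among all tested genes. In *Sst*+/*Gad2*+ nuclei 2 of 77 were called (*Kcnd3*, *Kcnn3*), beside 57 of 19672. In radial-glia-like nuclei 2 of 88 were called (among them *Kcnip1*), beside 230 of 27711. In IPC-like nuclei 3 of 85 were called (among them *Kcnip1* and *Kcnip4*), beside 240 of 24690. In upper-layer-like nuclei 1 of 91 was called (*Kcnc2*), beside 110 of 28686. In deep-layer-like nuclei 5 of 96 were called (*Kcng2*, *Kcnh1*, *Kcnn2*, *Kcnq5*, *Kcnt2*), beside 391 of 30920. For the genotype difference between interneurons and excitatory neurons 2 of 96 were called (*Kcnab1*, *Kcnmb2*), beside 135 of 33362. Leaving out 1 library gave 0 to 1 members over all retained nuclei (*Kcne2* without Dnmt1 KO replicate 1), 0 to 2 in *Sst*+/*Gad2*+ nuclei (*Kcnd3*, *Kcnn3* without Dnmt1 KO replicate 2), 0 to 2 in IPC-like nuclei (1 without Dnmt1 KO replicate 1, *Kcnip1* and *Kcnq5* without Dnmt1 KO replicate 2), 0 to 4 in deep-layer-like nuclei (*Kcnab1*, *Kcnip1*, *Kcnn2*, *Kcnq5* without Dnmt1 KO replicate 2) and 0 to 1 for the difference (*Kcnmb2* without Dnmt1 KO replicate 2). The causes were not tested.

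Among all genes, where edgeR called 0 between genotypes in each population, calls without the low-count filter numbered 70 over all retained nuclei, 57 in *Sst*+/*Gad2*+, 1 in MGE-interneuron-like, 230 in radial-glia-like, 240 in IPC-like, 110 in upper-layer-like and 391 in deep-layer-like nuclei, and 135 for the difference. DESeq2 called 205, 0, 2, 44, 17, 2, 21 and 0 in the same order. Without Dnmt1 KO replicate 1 they numbered 188 over all retained and 79 in IPC-like nuclei, without Dnmt1 KO replicate 2 307 in IPC-like, 163 in deep-layer-like and 59 in *Sst*+/*Gad2*+ nuclei, and without either control library at most 10 in any population. With the replicate number as a block, 0 genes were called in each population. The deviations of same-numbered libraries had a correlation of -0.06, a single value, since with 2 libraries per genotype the second pair mirrors the first. The labels name no shared source, so the numbers were not taken as pairing. With 2 libraries per genotype, small genotype differences could not be detected and large ones could be missed. Over all retained nuclei even the largest rise of a channel gene, 2.70 on the log2 scale, was not called. Transcripts in *Sst*+/*Gad2*+ nuclei were few.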

Other observations

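In 388 Cajal-Retzius-like nuclei, early marginal-zone neurons, *Kcnj5*, a subunit of the G-protein-gated inward rectifier, was at 40.0 and 29.4 CPM in the Dnmt1 KO libraries, against 28.4 and 50.3 CPM in the control libraries. The highest of the neural classes was the CGE interneurons at 0.211 CPM. *Kcnk9*, a two-pore leak channel, was at 48.9 ± 15.0 CPM there (SD, n = 4), 14.1 times the upper-layer-like level, and *Kcnip2*, a partner of Kv4 channels, at 52.5 ± 24.0 CPM. *Kcnh7* was at 5141, 5468, 5250 and 5382 CPM in the 4 libraries, against 1173 CPM in radial glia.

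In 79 microglia-like nuclei, *Kcnk13*, the two-pore channel THIK-1 known from microglia, was at 466 and 169 CPM in the Dnmt1 KO libraries and at 269 and 302 CPM in the control libraries. *Kcnk6*, another two-pore channel, was at 30.4 ± 11.1 CPM, from 24 transcripts in all. In 50 oligodendrocyte-precursor-like nuclei, *Kcnd2*, a Kv4 channel, was at 7795, 8016 and 5390 CPM in Dnmt1 KO replicate 2 and the control libraries, while Dnmt1 KO replicate 1 held 1 such nucleus. In 144 choroid-plexus-like nuclei, 136 of them from Dnmt1 KO replicate 2, *Kcne2*, an auxiliary subunit expressed in choroid plexus epithelium, was at 127 CPM in that library and had 0 transcripts in the others, and *Kcnj13*, an inward rectifier, was at 96.4 CPM in it. No test was run on these classes.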
